A study of Homo sapiens with 8 samples.

Results

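TFRC, the transferrin receptor through which most cells take up iron, was examined together with 9 other genes of cellular iron uptake, storage, export and sensing in HCT116, an established cell line from a human colorectal carcinoma. The members were the probe sets whose annotated symbols include TFRC, STEAP3, SLC11A2, FTL, FTH1, NCOA4, SLC40A1, ACO1, IREB2 or HMOX1. The annotation used here paired 8 of the 10 genes with a probe set, 1 each and with no second gene, out of 33297 probe sets in all. It paired none with FTH1 or IREB2, which are not analysed here. The set was chosen by its difference between the lines, in that TFRC was known to be lower in shCDK8 cells. Differences between the lines are therefore given for the members as a description, without a test, and tests are given for the response to serum, which did not choose them.

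The shCDK8 cells expressed a short hairpin RNA directed against CDK8, a kinase of the Mediator complex, and the shControl cells a control hairpin. All cells were kept without serum for 40 h, and were then harvested either 30 min after fetal bovine serum was given back at 10% or without that addition. The groups were serum-treated shCDK8, starved shCDK8, serum-treated shControl and starved shControl cells, with 2 arrays each and 8 in all. Nothing in the labels ties duplicates to separate cultures. The p-values therefore measure only how far these samples spread, and that spread may be technical. Each arm had 1 hairpin, so the knockdown and any other difference between the lines cannot be told apart.

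Iron reaches most cells bound to transferrin, which the transferrin receptor carries into endosomes. There the metal is reduced and pumped into the cytosol. What is not used is stored in ferritin, a shell of heavy (FTH1) and light (FTL) chains, or leaves through ferroportin, encoded by SLC40A1. When iron is scarce, the iron regulatory proteins ACO1 (IRP1) and IREB2 (IRP2) bind hairpins called iron-responsive elements in messenger RNAs. Binding stabilises TFRC mRNA and blocks translation of ferritin mRNA. The arrays measure mRNA alone, so translation was not measured.

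Promoters of 8 of the 10 genes were found in a RefSeq table of build GRCh38.p14. The first sequence below is shown because TFRC differed most between the lines. It holds the 100 bases before its annotated start, at chr3:196082091-196082190 on the minus strand, with capitals for the motifs that were searched. The second is the stretch of the FTL mRNA start with the loop of its iron-responsive element in capitals, at chr19:48965329-48965358 on the plus strand, positions 21 to 50 of the transcript. It shows the kind of site the iron regulatory proteins read.
TFRC: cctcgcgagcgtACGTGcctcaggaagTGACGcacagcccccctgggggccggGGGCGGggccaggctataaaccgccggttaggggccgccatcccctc
FTL: gtctgtctcttgcttcaaCAGTGTttggac
Counting back from the start, the TFRC window held ACGTG, the core that hypoxia-inducible factors bind, at position -88, TGACG, a half-site of cAMP-response elements, at -73 and GGGCGG, the GC box of SP1, at -47. None of the 3 matches overlapped another. Searched on both strands in the same 100 bases of 35116 promoters, these motifs were found in 8.99%, 11.7% and 31.3%. The genes with a promoter in the table were TFRC, STEAP3, SLC11A2, FTL, NCOA4, SLC40A1, ACO1 and IREB2. Among their windows ACGTG also stood before FTL, at position -11, and in no other. TGACG stood only before TFRC. GGGCGG also stood before STEAP3 (2 matches), FTL (1), SLC40A1 (3) and ACO1 (5). The loop motif CAGTGN, searched on the transcribed strand in the first 50 transcribed bases, was found in 6.36% of the promoters, and among those 8 genes in FTL, at position 39, and after 1 of the starts of NCOA4, at position 27. A match describes letters alone. Bases beyond the first 50 of a transcript were not searched, so a gene without a match may still carry an iron-responsive element.

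Levels are log2 probe set summaries. Groups were compared on the same probe set. The array median serves only as a rough mark of a dim probe set, since probe affinity sets a level in part, and no detection calls were used. The array medians ranged from 6.44 to 6.51, and the correlation of duplicates across all probe sets was 0.996 to 0.997. The probe set that covers CDK8, which the annotation also pairs with ADRA1B, was 4.49-fold lower in shCDK8 cells averaged over both times (log2 -2.17 ± 0.045 SE; limma adjusted p = 1.50e-06). Of 10 colorectal epithelial markers 7 lay above the overall median level, EPCAM, KRT8, KRT18 and KRT19 among them, while KRT20, VIL1 and LGALS4 lay below it. Of markers of other cell types, 1 of 5 measured for erythroid cells, 1 of 7 for macrophages, 1 of 6 for hepatocytes and 2 of 6 for fibroblasts lay above it. The mean level of the epithelial markers ranged from 9.05 to 9.16 on shCDK8 arrays and from 9.01 to 9.06 on shControl arrays, but single markers differed between the lines. Averaged over both times, KRT18 differed by 0.56, KRT8 by 0.43, CDH1 by 0.23 and KRT19 by -0.32 (shCDK8 minus shControl, log2), and their part in the results was not tested. The mean level of the erythroid markers ranged from 5.54 to 5.70 on shCDK8 arrays and from 5.56 to 5.74 on shControl arrays. That of the macrophage markers ranged from 5.52 to 5.57 on shCDK8 arrays and from 5.49 to 5.61 on shControl arrays.

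TFRC was lower on every shCDK8 array than on every shControl array, and no change with serum was detected in either line. Its level was 10.57 and 10.49 in serum-treated shCDK8 cells and 10.44 and 10.48 in starved shCDK8 cells, against 11.46 and 11.40 in serum-treated shControl cells and 11.36 and 11.39 in starved shControl cells. The 4 shCDK8 arrays thus lay within a narrow band and the 4 shControl arrays within another, with no overlap. The share of all genes without overlap between the lines was not counted. Nothing is therefore read from the lack of overlap, here or for the other members. After serum the shCDK8 cells averaged 10.53 ± 0.057 and the shControl cells 11.43 ± 0.041 (SD, n = 2 each), a 1.87-fold lower level in shCDK8 cells (log2 -0.90). In starved cells the averages were 10.46 ± 0.027 in shCDK8 and 11.38 ± 0.019 in shControl cells, a 1.89-fold lower level (log2 -0.92). In such bulk RNA, fewer cells that express a gene and less RNA per cell cannot be told apart. Averaged over both times the difference was -0.91, and of 18417 genes with a probe set of their own 193, or 1.05%, differed by at least that much in either direction. The order of the group levels was serum-treated shControl, starved shControl, serum-treated shCDK8 and starved shCDK8. The neighbours within each line differed by 0.069 in shCDK8 and 0.056 in shControl cells, and neither difference passed the test.

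**Figure D1:**
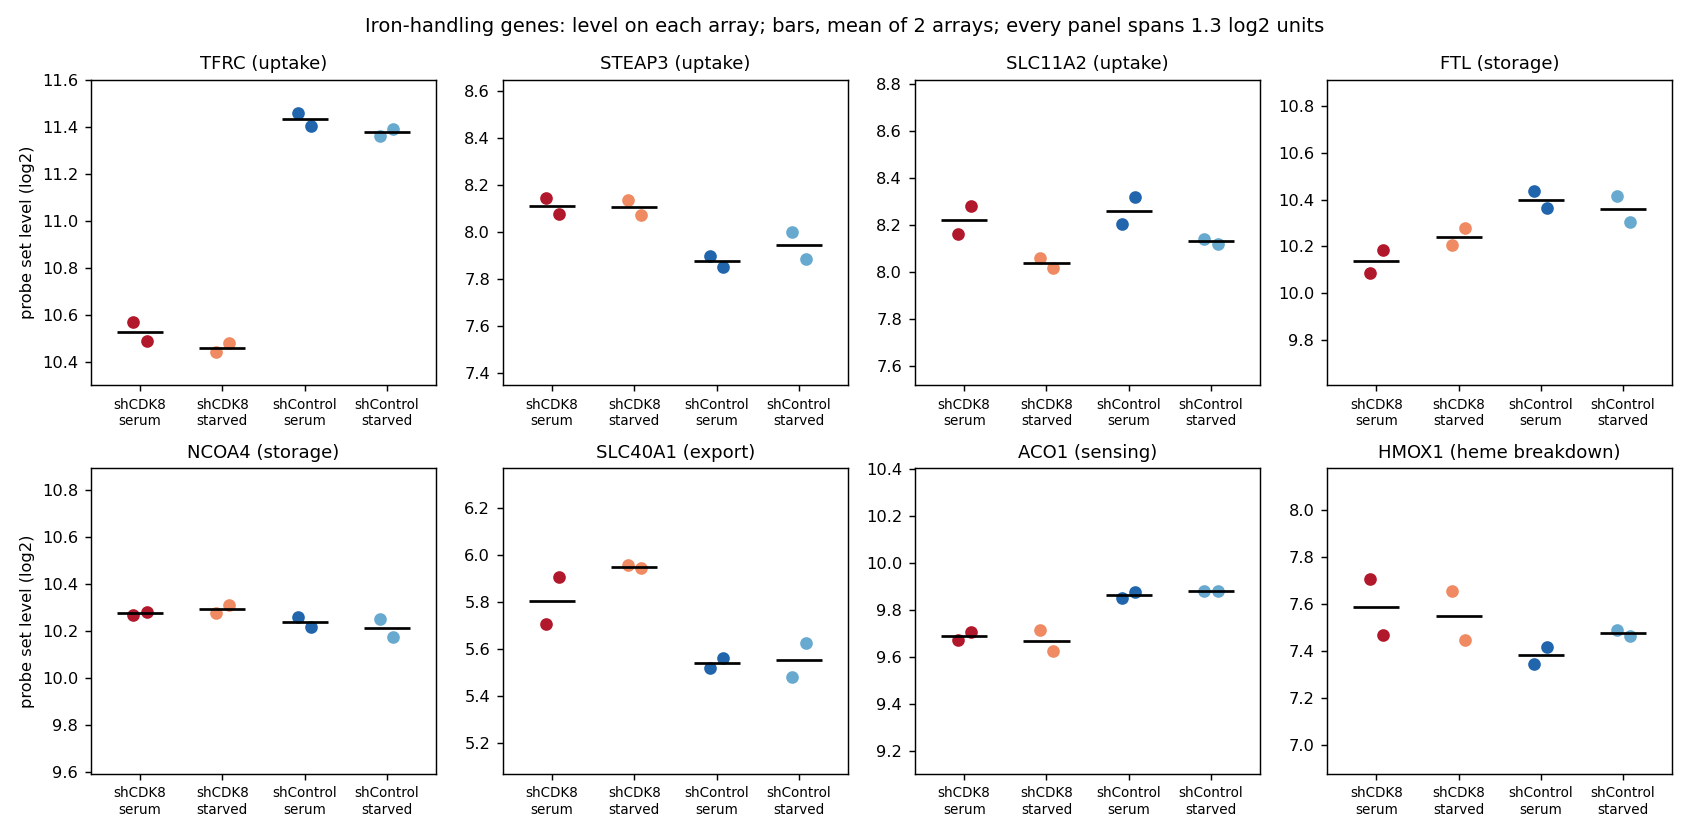
Level of each measured iron-handling gene (log2 probe set summary, vertical axis) on the 8 arrays, by group; points are arrays and bars the means of 2 arrays, and every panel spans the same range of log2 units. TFRC lies between 10.44 and 10.57 on the shCDK8 arrays and between 11.36 and 11.46 on the shControl arrays, and no other panel has a step of that height.

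The other uptake genes showed smaller differences. STEAP3, the endosomal reductase that turns ferric into ferrous iron, was at 8.15 and 8.08 in serum-treated shCDK8 cells, against 7.90 and 7.85 in serum-treated shControl cells. In starved cells it was at 8.14 and 8.07 in shCDK8 cells, against 8.002 and 7.89 in shControl cells. All 4 shCDK8 values were above all 4 shControl values, opposite to TFRC, and the averaged difference was 0.20. SLC11A2, the transporter DMT1 that moves ferrous iron out of the endosome, was at 8.16 and 8.28 in serum-treated shCDK8 cells and 8.06 and 8.02 in starved shCDK8 cells. In shControl cells it was at 8.20 and 8.32 after serum and at 8.14 and 8.12 before it. The lines overlapped after serum, and in starved cells the shCDK8 minus shControl difference was -0.091.

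Among the storage genes, FTL was at 10.09 and 10.19 in serum-treated and 10.21 and 10.28 in starved shCDK8 cells. It was at 10.43 and 10.36 in serum-treated and 10.42 and 10.30 in starved shControl cells. Every shCDK8 value was below every shControl value, with differences of -0.26 after serum and -0.12 in starved cells. The starved difference was -0.063 without starved array 1 of shControl and -0.17 without starved array 2 of shControl. FTL has processed pseudogenes close to it in sequence, and the sources used here do not say whether the probes tell them apart. NCOA4, the receptor that delivers ferritin to autophagosomes for breakdown, varied least of the members. Its 8 values lay between 10.18 and 10.31, and shCDK8 exceeded shControl cells by 0.037 after serum and by 0.082 before it.

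SLC40A1, the iron exporter ferroportin, was higher in shCDK8 cells. It was at 5.71 and 5.91 in serum-treated and 5.96 and 5.94 in starved shCDK8 cells, against 5.52 and 5.56 in serum-treated and 5.48 and 5.62 in starved shControl cells. The lines did not overlap at either time, and the log2 difference was 0.27 after serum and 0.40 in starved cells. The difference after serum was 0.17 without serum array 2 of shCDK8 and 0.37 without serum array 1. The probe set lay below the array medians in all groups, and whether it was above background was not tested. After TFRC, this was the largest averaged difference of the members (0.33).

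ACO1, the iron-sensing protein IRP1 and also cytosolic aconitase, was slightly lower in shCDK8 cells. It was at 9.67 and 9.71 in serum-treated and 9.71 and 9.62 in starved shCDK8 cells, against 9.85 and 9.88 in serum-treated and 9.88 on both starved shControl arrays. The groups did not overlap between lines, which was not counted over all genes, and the averaged difference was -0.19. HMOX1, heme oxygenase 1, which frees iron from heme, had the widest duplicates of the members. It was at 7.71 and 7.47 in serum-treated and 7.66 and 7.45 in starved shCDK8 cells, against 7.35 and 7.42 in serum-treated and 7.49 and 7.46 in starved shControl cells. The lines overlapped in starved cells, and leaving out starved array 1 of shCDK8 turned the starved difference of 0.074 to -0.032.

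Of the 18417 genes, 17% had a limma adjusted p below 0.05 between the lines averaged over both times. The share was 7.76% in starved cells and 8.35% after serum. The rule used these contrasts, so the members were not tested in them. The median of the 8 averaged differences was -0.0026, beside -0.014 over all genes, with 4 members higher and 4 lower.

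The response to serum asks whether iron handling moves within the window in which immediate-early genes are induced. None of the 8 members passed limma's test with Benjamini-Hochberg adjustment in either line or averaged over both, nor did the difference between the lines' responses for any of them. Of all genes, 0.119% passed in shCDK8 cells, 0.174% in shControl cells, 0.413% in the average and 0% in the difference of responses. Without adjustment, 1 member was below 0.05 in shCDK8 cells, 0 were in shControl cells, 1 was in the average and 0 were in the difference (limma), beside 1327, 1231, 2076 and 502 of the 18417 genes. The median change of the members in the average was -0.013, beside -0.015 over all genes.

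SLC11A2 was the 1 member at an unadjusted p below 0.05. Its level after serum was above that before it by 0.18 ± 0.072 (SE) in shCDK8 cells and by 0.13 ± 0.072 in shControl cells, with adjusted p = 0.641 and 0.732 in limma. Serum-treated and starved arrays did not overlap in either line, which was also so for TFRC. In shCDK8 cells the same held for FTL and SLC40A1, and in shControl cells for ACO1 and HMOX1. The share of all genes without overlap was not counted, so nothing is read from this for SLC11A2. The averaged change of 0.16 had a 95% interval, from the model and not adjusted for the number of genes, of 0.036 to 0.28, and an adjusted p of 0.355 (limma), which ranged from 0.230 to 0.611 over the alternatives.

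The level of TFRC after serum differed from that before it by 0.069 ± 0.063 (SE) in shCDK8 cells and by 0.056 ± 0.063 in shControl cells (limma adjusted p = 0.816 and 0.875). The 95% interval of the averaged change ran from -0.044 to 0.17. The difference between its responses was 0.013, with a 95% interval of -0.20 to 0.22, and it turned sign with cyclic loess (-0.0093) or median centring (-0.00245). The interval for the averaged response of TFRC thus lay well inside the 0.91 by which the lines differed.

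**Figure D2:**
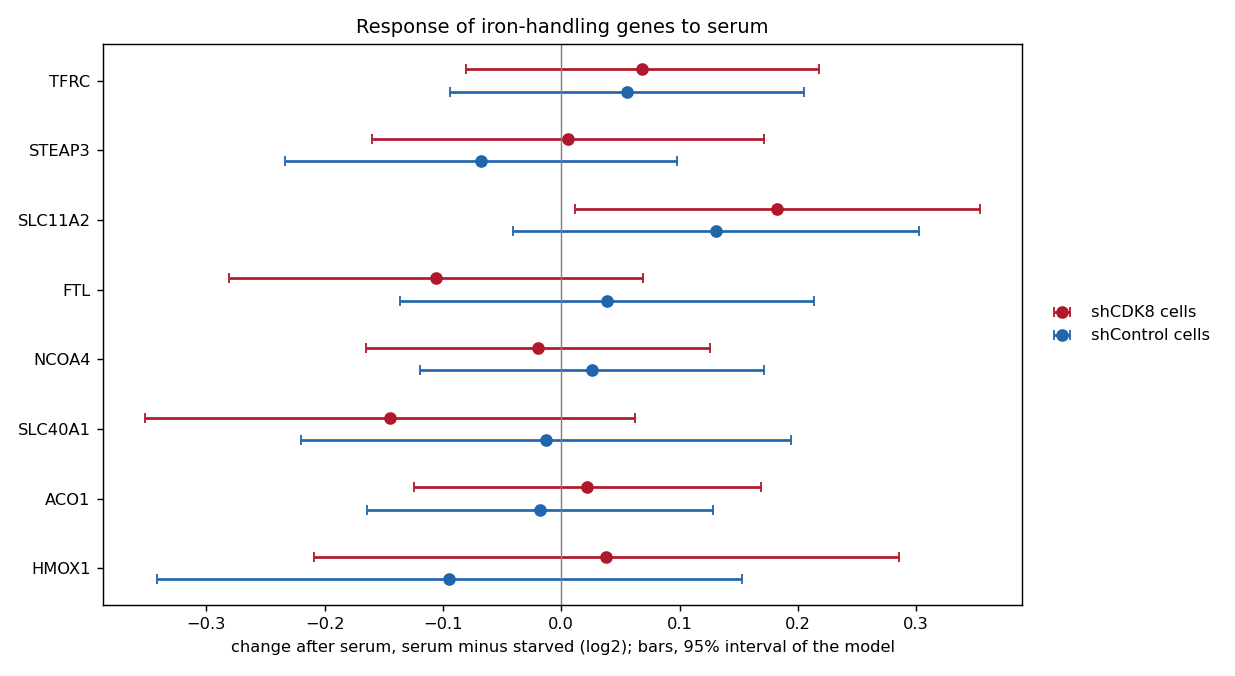
Change of each measured iron-handling gene after 30 min of serum (serum minus starved, log2, horizontal axis) in shCDK8 cells (upper point of each pair) and shControl cells (lower point); bars are 95% intervals of the limma model, not adjusted for multiple tests. Every interval includes 0 except that of SLC11A2 in shCDK8 cells, and every estimate lies between -0.14 and 0.18.

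In each line the remaining members differed between times by less than SLC11A2, some of them by more than TFRC. In shCDK8 cells the serum minus starved difference was -0.11 for FTL and -0.14 for SLC40A1, and in shControl cells it was 0.039 and -0.013. Without serum array 1 of shCDK8 the shCDK8 values were -0.055 for FTL and -0.045 for SLC40A1, and without serum array 2 they were -0.16 and -0.24. The differences between these responses were -0.14 ± 0.10 and -0.13 ± 0.12 (SE), each with adjusted p = 1.00 in limma. Without 1 array they ranged from -0.20 to -0.090 for FTL and from -0.23 to -0.032 for SLC40A1. HMOX1, which many stresses induce, differed by 0.038 ± 0.10 in shCDK8 cells and by -0.094 ± 0.10 in shControl cells. Its averaged interval was -0.20 to 0.15. In shCDK8 cells the differences were 0.0059 for STEAP3, -0.020 for NCOA4 and 0.022 for ACO1. In shControl cells they were -0.068 for STEAP3, 0.026 for NCOA4 and -0.018 for ACO1.

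Beyond the members, 8 lists held 98 other genes of iron biology, of which 89 were measured. None of the 89 passed in any of the 4 tests of serum (limma; before adjustment 3 were below 0.05 in shCDK8 cells, 5 in shControl cells, 6 in the average and 1 in the difference of responses), and the smallest adjusted p in the average was 0.319. Between the lines, averaged over both times, 8 of the 89 were higher in shCDK8 cells (8.99%) and 14 lower (15.7%), where 9.01% of all genes were higher and 8% lower. In starved cells 5 were higher (5.62%) and 7 lower (7.87%), beside 4.35% and 3.4% of all genes. After serum 5 were higher (5.62%) and 6 lower (6.74%), beside 4.8% and 3.55%. The median averaged difference of the 89 was -0.042, beside -0.014 over all genes. The 12 starved calls became 6 and 5 without starved arrays 1 and 2 of shCDK8, and 7 and 6 without those of shControl. The 11 calls after serum became 6 and 5 without serum arrays 1 and 2 of shCDK8, and 6 and 4 without those of shControl.

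Per list, shares are again to be read beside the 9.01% higher and 8% lower of all genes, and medians beside -0.014. Of 12 uptake and reduction genes 1 rose (8.33%), 3 fell (25%) and 8 did not pass in shCDK8 cells, averaged over both times, with a median of -0.045. SLC39A8, the metal transporter ZIP8, rose 1.63-fold (log2 0.70 ± 0.043 SE, limma adjusted p = 1.42e-04). It lay between 8.98 and 9.03 on the 4 shCDK8 arrays, against 8.27 to 8.36 on the 4 shControl arrays. HFE, the hemochromatosis protein that binds the transferrin receptor, was lower (log2 -0.57 ± 0.052, limma adjusted p = 7.75e-04). Its values were 6.29 to 6.42 in shCDK8 and 6.87 to 6.99 in shControl cells. The shCDK8 values all lay below the array medians and may not exceed background, so no fold is given. CYBRD1, a ferric reductase, fell 1.31-fold (-0.39 ± 0.056, adjusted p = 0.00517). TF, the gene of transferrin, and TFR2, the second transferrin receptor, differed by 0.092 and 0.0036 and did not pass. TF averaged 5.12 on shCDK8 arrays and 5.03 on shControl arrays, below the array medians.

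In the list of storage, export and chaperone genes, 1 of 11 rose and 1 fell (9.09% each), with a median of -0.042. HEPH, the ferroxidase hephaestin that works beside ferroportin in export, was higher by 1.05 ± 0.057 (log2, adjusted p = 8.36e-05). Its values were 5.43 and 5.40 in serum-treated and 5.25 and 5.28 in starved shCDK8 cells, against 4.37 and 4.18 in serum-treated and 4.34 and 4.25 in starved shControl cells. All 8 lay below the array medians and may not exceed background in shControl cells, so no fold is given. FLVCR1, a heme exporter, fell by 0.17 on the log2 scale (adjusted p = 0.0476), a call that ended when any 1 of the 8 arrays was left out (0.0835 to 0.140) and with median centring (0.118). The iron chaperones PCBP1 and PCBP2 differed by -0.042 and -0.12 and did not pass.

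Among 12 measured genes of iron sensing and systemic regulation 1 rose and 1 fell (8.33% each), with a median of 0.020. EPAS1, or HIF-2 alpha, a hypoxia-inducible factor whose mRNA carries an iron-responsive element, fell 1.44-fold (-0.52 ± 0.048, adjusted p = 8.43e-04), with 8.23 to 8.36 on shCDK8 arrays and 8.77 to 8.91 on shControl arrays. BACH1, a heme-binding repressor of HMOX1, rose 1.25-fold (0.32 ± 0.047, adjusted p = 0.00592). FBXL5, the ubiquitin ligase subunit that marks IREB2 for degradation when iron is plentiful, differed by 0.072 and did not pass.

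**Figure D3:**
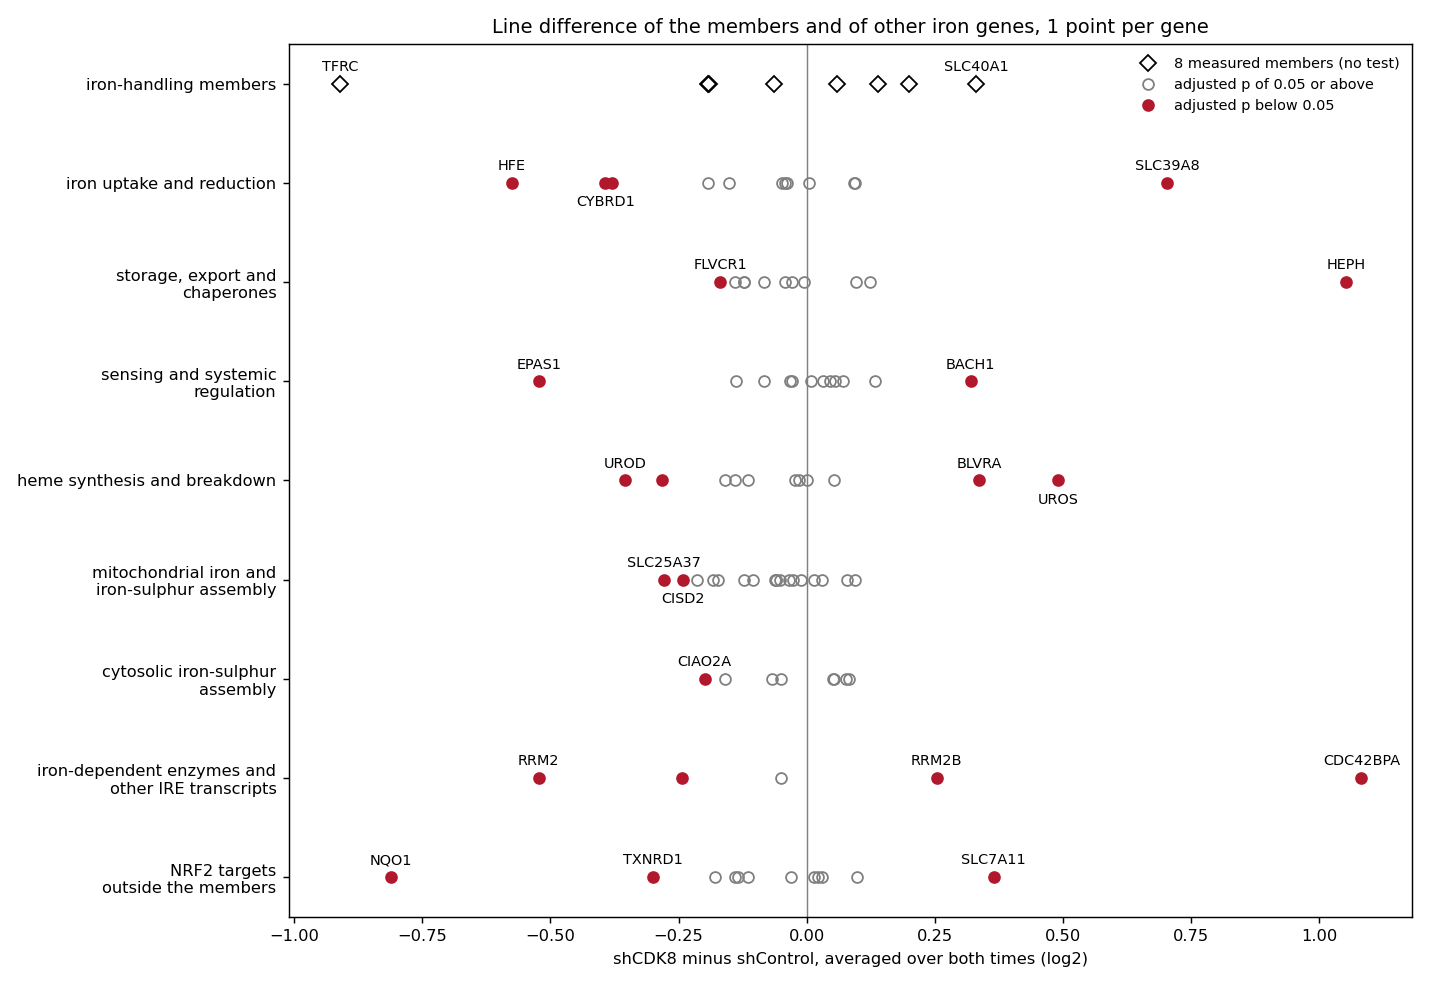
Difference between the lines (shCDK8 minus shControl, averaged over both times, log2, horizontal axis) for the 8 measured members and, by list, 89 other iron genes. Each gene has 1 point, filled where the adjusted p of limma was below 0.05. Labels mark TFRC, SLC40A1 and the other iron genes named in the text as passing. Diamonds are the members, shown without a test; TFRC lies at -0.91, while filled points stand on both sides of 0 in most lists.

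Of 11 measured heme genes 2 rose and 2 fell in shCDK8 cells (18.2% each), with a median of -0.023. The synthesis enzymes UROS and UROD, which act in turn, changed in opposite directions. UROS rose 1.41-fold (0.49 ± 0.051, adjusted p = 0.00138) and UROD fell 1.28-fold (-0.35 ± 0.066, adjusted p = 0.0154). Leaving out serum array 1 of shCDK8 ended the UROD call (0.0543), as did starved array 1 (0.0556) or serum array 2 (0.0601) of shControl. BLVRA, biliverdin reductase, which acts on the product of heme oxygenase, rose 1.26-fold (0.34 ± 0.048, adjusted p = 0.00520). HMOX2, the constitutive heme oxygenase, differed by 0.053 and did not pass.

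Of 18 measured mitochondrial iron and iron-sulphur genes none rose and 2 fell (11.1%), with a median of -0.060. SLC25A37, the mitochondrial iron importer mitoferrin 1, fell by 0.28 (adjusted p = 0.0210) and CISD2, an iron-sulphur protein, fell by 0.24 (adjusted p = 0.0156), both on the log2 scale. The SLC25A37 call ended without serum array 1 (0.0639) or starved array 2 (0.0765) of shCDK8, and without serum array 1 (0.0579), serum array 2 (0.0782) or starved array 2 (0.0688) of shControl. The CISD2 call ended without starved array 1 (0.0611) or serum array 2 (0.0570) of shCDK8, and without serum array 1 (0.0521) or 2 (0.0627) of shControl. Of 8 measured cytosolic genes none rose and 1 fell (12.5%), with a median of 0.00071. This was the assembly factor CIAO2A, which fell by 0.20 on the log2 scale (adjusted p = 0.0449), and the call ended with median centring (0.0683) and when any array other than serum array 1 of shCDK8 was left out (0.0859 to 0.140).

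Of 5 measured iron-dependent enzymes and other transcripts with iron-responsive elements 2 rose and 2 fell (40% each), with a median of -0.050. CDC42BPA, a kinase whose mRNA carries an iron-responsive element, rose 2.12-fold (1.08 ± 0.050, adjusted p = 4.34e-05), with 4 shCDK8 values of 10.01 to 10.17 against 4 shControl values of 8.95 to 9.08. RRM2, the iron-containing subunit of ribonucleotide reductase, fell 1.44-fold (-0.52 ± 0.065, adjusted p = 0.00298). RRM2B, its p53-inducible relative, rose 1.19-fold (0.25 ± 0.049, adjusted p = 0.0171). The RRM2B call ended without serum array 1 of shCDK8 (0.0616), starved array 2 of shCDK8 (0.0662), starved array 2 of shControl (0.0575) or serum array 2 of shControl (0.0683).

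NRF2, the factor that responds to oxidative stress, is known to activate HMOX1, FTL and SLC40A1, so its other targets were read beside them. Of 12 measured targets 1 rose (8.33%) and 2 fell (16.7%) in shCDK8 cells, with a median of -0.073. NQO1, a quinone reductase, fell 1.76-fold (-0.81 ± 0.048, adjusted p = 1.21e-04), with 10.26 to 10.35 on shCDK8 arrays and 11.07 to 11.16 on shControl arrays. TXNRD1, thioredoxin reductase, fell 1.23-fold (-0.30 ± 0.041, adjusted p = 0.00444). SLC7A11, the cystine transporter, rose 1.29-fold (0.36 ± 0.069, adjusted p = 0.0168). Its call was lost without serum array 1 of shCDK8 (0.0578), or without starved array 1 (0.0593) or serum array 1 (0.0633) of shControl.

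The genes closest to TFRC over the 8 arrays were found by centring each gene on its own mean and taking the root mean square difference from TFRC. The 5 closest of 18416 genes were MTHFD1, a folate-cycle enzyme, HIPK3, a protein kinase, ORC2, a subunit of the origin recognition complex, KIF20A, a mitotic kinesin, and NQO1. Their root mean square differences were 0.0418, 0.0427, 0.0582, 0.0621 and 0.0660 on the log2 scale, against a median of 0.460 over all genes. Their averaged line differences were -0.92, -0.86, -0.88, -0.95 and -0.81, and their averaged changes with serum lay between 0.012 and 0.094. No member of the iron set was among them. The measure reads the 8 arrays that also define the lines, so it describes a shared step between shCDK8 and shControl cells and nothing further.

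**Figure D4:**
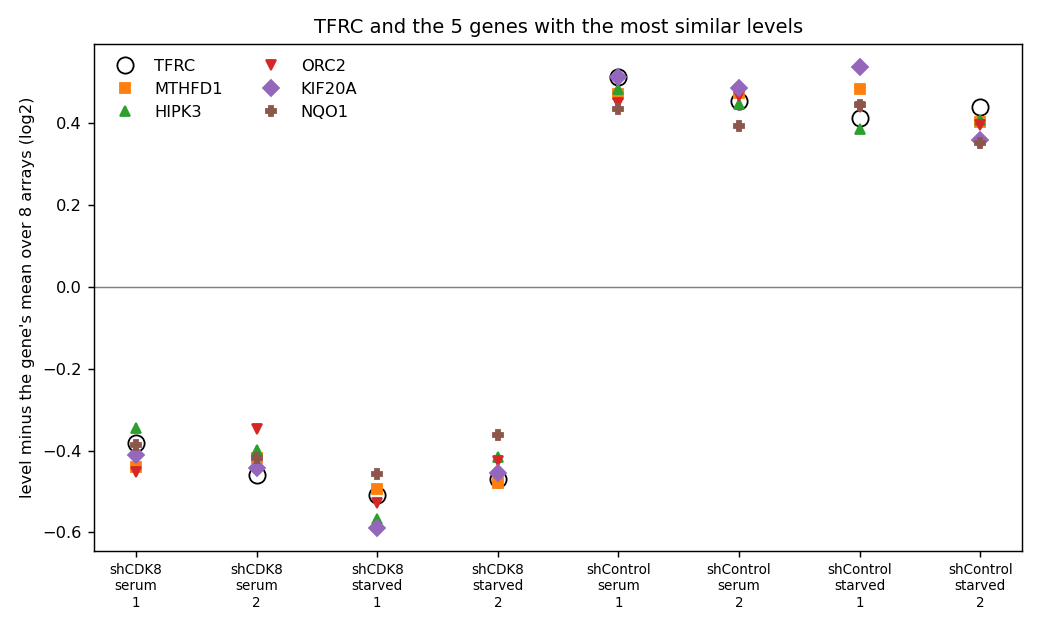
Level of TFRC and of the 5 genes closest to it on each array, minus each gene's mean over the 8 arrays (log2, vertical axis), with arrays along the horizontal axis by group and replicate number. All 6 genes lie below 0 on the 4 shCDK8 arrays and above 0 on the 4 shControl arrays, and the serum and starved arrays of a line lie close together.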

How the data were processed

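Total RNA of 8 samples was measured on Affymetrix human gene arrays. The deposited values are log2 probe set summaries made with RMA, per the submitters' processing notes; the sources used here give no version or genome build and do not say if all arrays were normalized as one set. They were used unchanged, without a filter. Of 33297 probe sets, 19460 were paired with 1 gene by the array annotation; for genes with several, the brightest was used (18417 genes). All 33297 were fitted with limma 3.58.1 in R 4.3.3 as 4 group means (4 residual and 2.92 prior degrees of freedom), and p-values were two-sided and Benjamini-Hochberg adjusted over the table. Background shares count the 18417 genes in that fit. The probe sets without a listed gene also enter the estimate of the prior degrees of freedom. More other iron genes were called after serum when those probe sets were left out, and why was not tested.

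Members and lists were chosen with earlier results of these data known. Named were all members, up to 3 called genes per list with the largest averaged line difference, any called with serum, and the 5 genes closest to TFRC; TF, TFR2, PCBP1, PCBP2, FBXL5 and HMOX2 were added after their values were seen. Alternatives were an intensity trend, the compared arrays alone, a replicate block, dim probe sets left out, cyclic loess, median centring, annotated probe sets alone, 1 probe set per gene, and leaving out each array. On simulated data for the averaged line comparison (33297 probe sets), 50 probe sets were shifted at each size. Of these, 78% shifted by 0.5, 92% shifted by 1, 98% shifted by 2 and 100% shifted by 3 (log2) were recovered. Of 201 calls, 8.46% were false. The real comparison called 3901 probe sets, far more than were shifted, so these shares need not hold for these data. Figures used matplotlib 3.10.9. The number of arrays limits the precision.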

Additional observations from a re-analysis of the deposited data

How the results depend on the processing

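The count of members called with serum, 0 in all 4 tests, was the same under every alternative run, as was the 0 for the other iron genes. For the line comparisons, members called in starved cells numbered 2, against 1, with an intensity trend, dim probe sets left out, cyclic loess, annotated probe sets alone or 1 probe set per gene, and ranged from 1 to 2 without 1 array. After serum they were 2 with the trend, annotated probe sets alone or 1 probe set per gene. Averaged, they ranged from 1 to 2 without 1 array, against 4. Other iron genes called after serum, 11 in the fit of all arrays, numbered 17 with the trend, 6 in the compared arrays alone, 19 over annotated probe sets, 20 with 1 probe set per gene and 4 to 9 without 1 array. Those in starved cells, 12, numbered 5 in the compared arrays alone and 5 to 10 without 1 array. Fewer arrays leave fewer degrees of freedom; other causes were not tested. Where 1 array was left in a group, its spread was taken from the other groups.

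The TFRC line difference after serum ranged from -0.94 to -0.86 without 1 array. Small changes with no call turned sign: with cyclic loess, the averaged serum changes of ACO1 (-0.0093) and NCOA4 (-0.0083), the shControl change of SLC40A1 (0.047) and the TFRC difference of responses (-0.0093); with median centring, the shControl changes of ACO1 (0.014) and SLC40A1 (0.019) and the TFRC difference of responses (-0.00245). Leaving out 1 array gave ranges across 0 for the differences of responses of ACO1 (-0.0047 to 0.085), SLC11A2 (-0.0066 to 0.11) and TFRC (-0.027 to 0.053); for the averaged serum changes of ACO1 (-0.020 to 0.025), HMOX1 (-0.088 to 0.032) and NCOA4 (-0.016 to 0.022); for the shCDK8 serum changes of ACO1 (-0.022 to 0.067), HMOX1 (-0.082 to 0.16) and STEAP3 (-0.028 to 0.040); for the shControl serum changes of FTL (-0.016 to 0.094), NCOA4 (-0.012 to 0.064) and SLC40A1 (-0.084 to 0.059); and for the line differences of HMOX1 in starved cells (-0.032 to 0.18) and SLC11A2 after serum (-0.097 to 0.020). Among values without a call that kept their sign but moved by over 1.5 times without 1 array were the serum changes of TFRC in shCDK8 (0.028 to 0.11) and shControl cells (0.027 to 0.085) and of SLC11A2 in shControl cells (0.073 to 0.19), and the line differences of NCOA4 after serum (0.014 to 0.059) and in starved cells (0.044 to 0.12).

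Some alternatives fitted only part of the table, so their counts of called probe sets come from different totals. For serum these counts ranged from 7 to 49 around 30 in shCDK8 cells and from 22 to 87 around 47 in shControl cells. Averaged over both lines they ranged from 39 to 170 around 124. Between the lines they ranged from 631 to 2617 around 1728 in starved cells and from 660 to 2789 around 1859 after serum. Averaged over both times they ranged from 2529 to 4658 around 3901. Replicate numbers are shared between groups, but the labels tie them to no batch, and duplicate differences correlated between groups at -0.129 to 0.124. With the replicate number as a block, 20 other iron genes were called between the lines on average, and FLVCR1 lost its call (limma adjusted p = 0.0645).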
